A study of Homo sapiens with 8 samples.

Results

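Chromosome 14 was examined through its 390 regions of trimethylated lysine 4 on histone H3 (H3K4me3) that were called in every one of 8 libraries of MM1S, a cell line established from human multiple myeloma. They were chosen by joining the 8 deposited lists wherever regions overlapped by at least 1 bp and keeping the merged regions on this chromosome that all lists contained. The whole series held 13729 such regions on chromosomes 1 to 22 and X, of which 12888 lay on the 21 other autosomes, the comparator here. Chromatin immunoprecipitation sequencing was done on 5 libraries of cells given the vehicle DMSO, with no time stated, and on 3 libraries of cells given 50 uM KDM5-C70 for 7 days. All 8 came from the same line with the same antibody, and the labels do not say whether they came from separate cultures, so the spread between libraries may be partly technical. The chromosome was picked because its regions had not widened with KDM5-C70 as much as regions elsewhere. Every value that sets KDM5-C70 against DMSO on it is therefore a description. A fit over all regions of the series is given as background, and nothing about the chromosome is supported with it.

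H3K4me3 marks nucleosomes around the start sites of active genes, and its width along the DNA differs between promoters. Demethylases of the KDM5 family remove methyl groups from this lysine, and KDM5-C70 is an inhibitor of that family. Chromosome 14 is acrocentric, so its mapped genes lie on the long arm, and its far end holds the immunoglobulin heavy chain locus. That locus is highly transcribed in plasma cells and is a frequent partner of translocations in myeloma. In MM1S cells it is joined to the MAF gene on chromosome 16. Regions are named by their positions on GRCh37, counted from 1, because the gene table used here is of another build. Each region carries a called width, which is the number of called bases a library has in it, and inner segments, which are the blocks longer than 1 bp that the deposited lists mark inside a called region.

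The libraries formed 2 sets that cut across treatment, which touches every comparison. DMSO 1, DMSO 2 and KDM5-C70 1 had shorter lists and narrower regions than DMSO 3, 4 and 5 and KDM5-C70 2 and 3. The lists held 15323 to 37948 regions on chromosomes 1 to 22 and X. The sets were recognised from the data and not from the labels. Comparisons within the sets are given beside the pooled ones, and the depth of the libraries is unknown.

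In every library the regions of chromosome 14 were called with weaker p-values than those of the other autosomes, while their fold enrichment was about the same. Taking all regions of each list, the median of the authors' -log10 p-value on chromosome 14 was 6.26, 4.28, 5.95, 4.91 and 5.66 in DMSO 1 to 5, against 8.75, 6.05, 8.21, 6.96 and 8.13 on the other autosomes. In KDM5-C70 1 to 3 it was 3.31, 3.47 and 3.02, against 4.38, 4.49 and 3.70. Chromosome 14 was the lowest of the 22 autosomes in 7 of the 8 lists. In DMSO 3 it was the second lowest, above chromosome 13 with 5.66. In the other lists chromosome 13 came next, at times closely, with 4.93 in DMSO 4 and 3.48 in KDM5-C70 2. Chromosome X, which is outside the comparator, lay below chromosome 14 in every list, with 5.44 in DMSO 1 and 3.22 in KDM5-C70 1. The median fold enrichment on chromosome 14 was at least 96.6% of that on the other autosomes in every list. These are values of the peak caller, compared only within a list.

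The set of regions on chromosome 14 was also a compact one. It held 1073 merged regions in any list, or 1.77 for each protein-coding gene that the GRCh38.p14 gene table lists on it, the second lowest ratio of the 22 autosomes after chromosome 19 with 1.46. The 390 shared regions were 36.3% of them, the second highest share, again after chromosome 19 with 41.3%. Chromosomes 17, 16 and 22 were close, with 35.5, 35.0 and 34.9%. On the other autosomes together 27.0% were shared. Regions called in a single list made up 25.6% on chromosome 14 and 31.9% elsewhere. Just outside the rule, 53 regions were called in 7 lists, with 44 of them missing from DMSO 2 and 9 from KDM5-C70 1. Their median width was 708 bp, against 1201 bp for the shared regions.

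The shared regions ran from chr14:19640454-19642687 to chr14:106325038-106327841, with a median gap of 71.0 kb between neighbours. The widest gap without one measured 6.46 Mb, between positions 82000216 and 88459090. At the first region the called widths were 1932, 340, 1580, 1189 and 1723 bp in DMSO 1 to 5 and 1339, 1915 and 1153 bp in KDM5-C70 1 to 3, so the groups overlapped. At the last region they were 2011, 1719, 2666, 2543 and 2697 bp with DMSO and 945, 2455 and 2005 bp with KDM5-C70. There KDM5-C70 lay below all DMSO libraries of its own set in both sets. Beyond that last region the lists held 25 more merged regions up to position 107281102, and none was in every list. At most 7 lists shared one, which happened at 2 of them. The lists called 15, 12 and 15 regions there in DMSO 3, 4 and 5, 14 and 14 in KDM5-C70 2 and 3, and 4, 1 and 2 in DMSO 1, DMSO 2 and KDM5-C70 1. Counts in that stretch thus separated by the sets of libraries and overlapped between the treatments.

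Shared regions on chromosome 14 widened less with KDM5-C70 than those of any other autosome. The median width of the 390 regions was 930, 711, 1481, 1309 and 1392 bp in DMSO 1 to 5 and 827, 1419 and 1380 bp in KDM5-C70 1 to 3. On the other autosomes the medians were 1047, 851, 1479, 1357 and 1391 bp, and 983, 1553 and 1595 bp. Regions of chromosome 14 were thus as wide as others in DMSO 3 and 5, and narrower in all 3 KDM5-C70 libraries, but also in DMSO 1, 2 and 4. For each region the log2 width change was taken as the mean of log2 called width over the KDM5-C70 libraries minus that over the DMSO libraries. Its median was 0.06 on chromosome 14 and 0.14 on the other autosomes, a difference of -0.08. The next lowest autosome was chromosome 13 with 0.10, and the highest was chromosome 21 with 0.17. Chromosome X, which is outside the comparator, had 0.04. The sign of the chromosome 14 median depended on single libraries, since it was -0.09 without DMSO 2, -0.06 without KDM5-C70 2, -0.05 without KDM5-C70 3 and 0.33 without KDM5-C70 1.

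The change was positive in 230 of the 390 regions, or 59.0%, while over all 13729 regions the share was 75.1%. The lower percentiles differed more than the upper ones. On chromosome 14 the 5th percentile of the log2 width change was -0.54 and the 95th was 0.52. On the other autosomes together they were -0.31 and 0.54. A low 5th percentile was not particular to chromosome 14, since chromosome 13 had -0.60 and chromosome X -0.59. Below -0.5 lay 26 regions of chromosome 14, or 6.67%, with a background of 2.45% over all regions. Above 0.5 lay 22, or 5.64%, with a background of 6.37%. The 26 strongly narrower regions had a median width of 1461 bp and the 22 strongly wider ones 1071 bp.

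**Figure D1:**
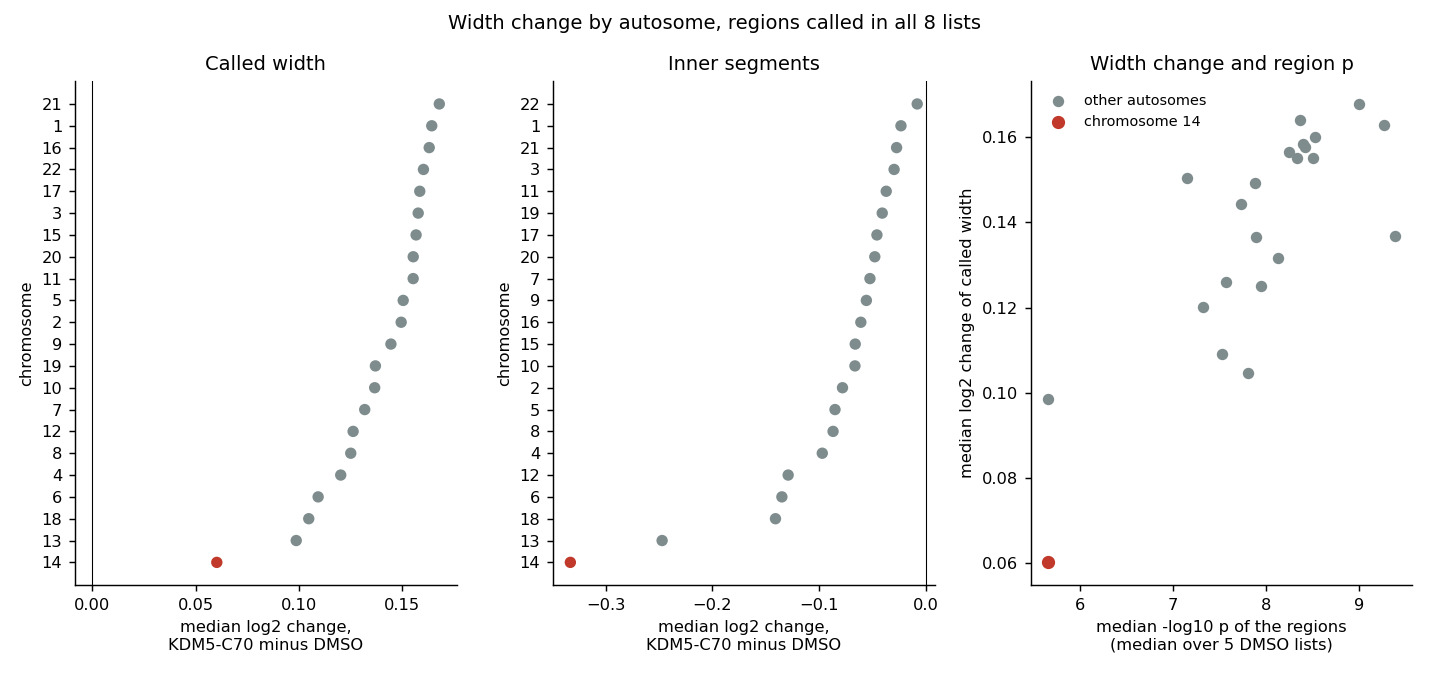
Median log2 change of called width (left) and of inner segments (centre), KDM5-C70 minus DMSO, for each autosome, with chromosomes in order of the value. At right, each autosome's width change is plotted against the median -log10 p-value of its regions (median of 5 DMSO lists). Chromosome 14, in red, is lowest for called width at 0.06 and for inner segments at -0.33.

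The shortfall was also present within the sets, and over libraries its size was close to their SD. In KDM5-C70 2 the median log2 width change against DMSO 3, 4 and 5 was 0.06 on chromosome 14 and 0.13 on the other autosomes. In KDM5-C70 3 it was 0.07 and 0.16. Chromosome 14 was the lowest of the 22 autosomes in both. In KDM5-C70 1 against DMSO 1 and 2 it was 0.02 and 0.04, and 4 autosomes lay lower, with chromosome 13 at -0.02.

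As a value for each library, the deviation of each region from its own mean over 8 libraries was taken, and the median on the other autosomes subtracted from that on chromosome 14. This relative width, on the log2 scale, was 0.05, -0.07, 0.11, 0.08 and 0.11 in DMSO 1 to 5 and -0.11, 0.02 and -0.03 in KDM5-C70 1 to 3. The means were 0.06 ± 0.08 (SD, n = 5) with DMSO and -0.04 ± 0.07 (SD, n = 3) with KDM5-C70. The groups overlapped only because DMSO 2 lay below KDM5-C70 2 and 3. Leaving out KDM5-C70 1 took the difference in medians between chromosome 14 and the other autosomes from -0.08 to -0.04, and chromosome 14 then ranked second lowest. Widths of single regions also varied more here, with a median SD between DMSO libraries of 0.44 on the log2 scale, against 0.35 on the other autosomes.

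The shortfall was larger among wide regions. All shared autosomal regions were put into 4 classes of equal number on the other autosomes by their mean log2 width. Chromosome 14 had 128, 100, 91 and 71 regions in the classes from narrow to wide, so it held fewer of the wide ones. In the narrowest class, up to 910 bp, the median log2 width change was 0.10 on chromosome 14 and 0.13 on the other autosomes. In the second it was 0.11 and 0.16. In the third, from 1240 to 1595 bp, it was -0.01 and 0.16, and in the widest class -0.03 and 0.12. In the third and the widest class, 44 of 91 and 33 of 71 chromosome 14 regions had a positive change, or 48.4 and 46.5%. On the other autosomes the shares were 81.5 and 74.0%. Within DMSO 3, 4 and 5 with KDM5-C70 2 and 3 the same 2 classes had medians of -0.01 and 0.00 on chromosome 14, and 0.17 and 0.12 elsewhere. In the other 3 libraries they were -0.02 and -0.07, and 0.05 and 0.02. The narrowest class had no shortfall within either set. Its medians on chromosome 14 and elsewhere were 0.110 and 0.109 in the set of 5 libraries, and 0.043 and 0.036 in the set of 3.

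**Figure D2:**
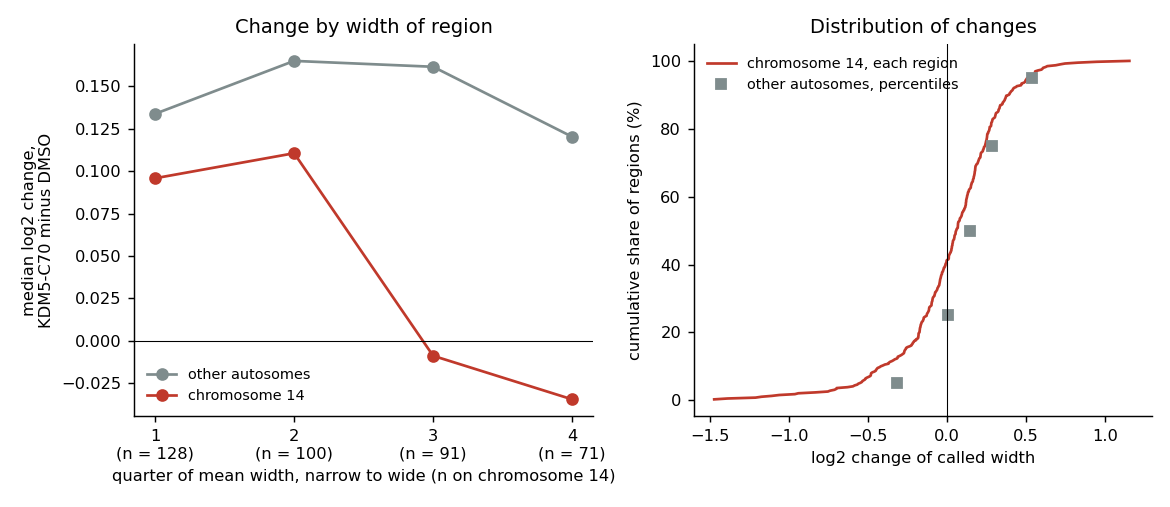
Left, median log2 change of called width (KDM5-C70 minus DMSO) in 4 classes of mean region width, for chromosome 14 (red, number of regions under the axis) and the other autosomes (grey). Right, cumulative share of the 390 chromosome 14 regions by log2 change, with the 5th, 25th, 50th, 75th and 95th percentiles of the other autosomes as squares. The 2 wide classes of chromosome 14 sit at -0.01 and -0.03. Its 5th percentile, -0.54, lies left of that of the other autosomes, -0.31. The lowest single change on the other autosomes, -2.23, is outside the axis.

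Inner segments shortened on chromosome 14 far more than their surrounding regions changed. They made up 70.7, 66.9, 77.8, 72.3 and 75.7% of the called bases of the 390 regions in DMSO 1 to 5, a mean of 72.7 ± 4.27% (SD, n = 5). In KDM5-C70 1 to 3 they made up 53.5, 59.4 and 50.3%, a mean of 54.4 ± 4.60% (SD, n = 3). The groups were 7.55 percentage points apart at their nearest, and the means differed by -18.3 points. On the other autosomes it was 78.5 ± 5.18% with DMSO (SD, n = 5) and 66.4 ± 3.91% with KDM5-C70 (SD, n = 3), a difference of -12.1 points. Among the autosomes the difference was greatest on chromosome 14, followed by chromosome 13 with -16.4 points. Chromosome X had -19.4 points.

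**Figure D3:**
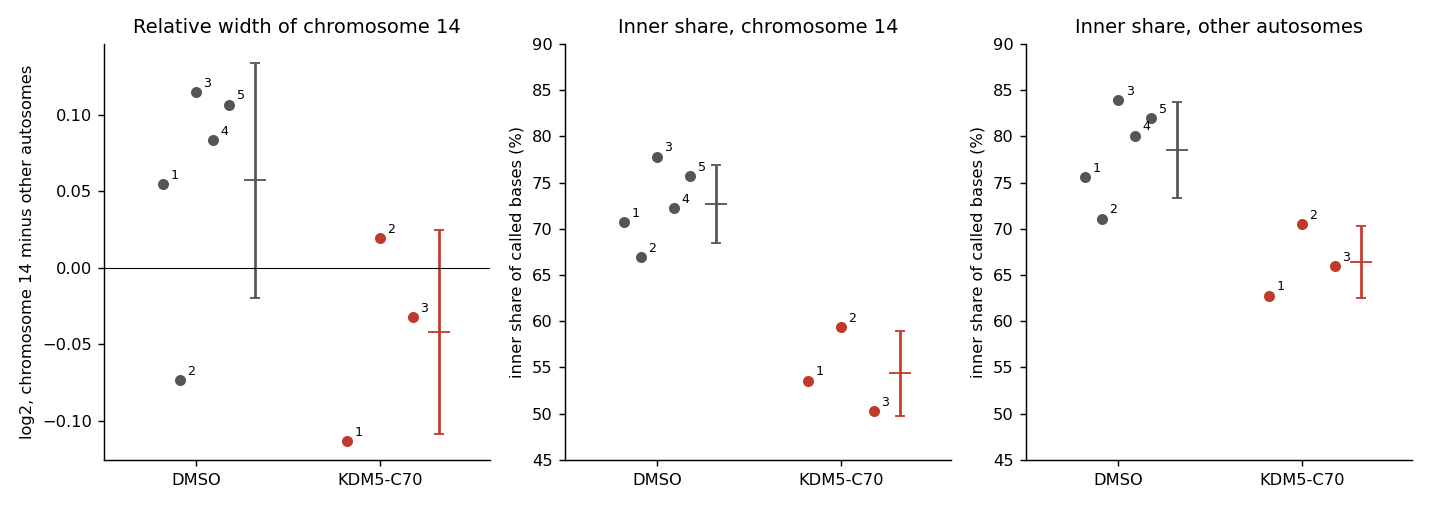
Each point is 1 library, labelled by its replicate number, with the mean and SD of each group beside it. Left, width of chromosome 14 regions relative to the other autosomes (log2). Centre and right, inner share of called bases on chromosome 14 and on the other autosomes. On chromosome 14 the KDM5-C70 libraries lie at 50.3 to 59.4% and the DMSO libraries at 66.9 to 77.8%.

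Of the 390 regions, 355 had an inner segment in all 8 libraries. Their inner width was shorter with KDM5-C70 in 316 (89.0%), while over all regions of this kind the share was 63.1%. The median log2 change of inner width was -0.33 on chromosome 14 and -0.06 on the other autosomes. Against the DMSO libraries of the same set it was -0.33 in KDM5-C70 1, -0.23 in KDM5-C70 2 and -0.46 in KDM5-C70 3. The same values elsewhere were -0.14, -0.06 and -0.09. Without KDM5-C70 1 the pooled value on chromosome 14 moved to -0.07 and that on the other autosomes to 0.19, so both moved upwards. An inner segment was missing altogether in 22, 0 and 6 of the 390 regions in KDM5-C70 1 to 3, and in 1, 13, 0, 0 and 0 in DMSO 1 to 5.

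Called regions also broke into pieces more often with KDM5-C70. A shared region was counted as split in a library that called several separate intervals inside it. On chromosome 14, 31, 37 and 45 regions were split in KDM5-C70 1 to 3, and 14, 15, 3, 10 and 9 in DMSO 1 to 5. That is 9.66 ± 1.80% (SD, n = 3) against 2.62 ± 1.22% (SD, n = 5) of the 390, and the groups did not overlap. On the other autosomes 4.33 ± 0.84% (SD, n = 3) were split in KDM5-C70 libraries, against 1.93 ± 0.56% (SD, n = 5) in DMSO libraries. In at least 1 library 89 regions (22.8%) of chromosome 14 were split, above the 11.2% of all regions and the 17.7% of chromosome 13, the next autosome. The 89 had a median log2 width change of -0.11 and the other 301 of 0.11. On the other autosomes split regions were also lower, with -0.01 over 1369 regions, against 0.16 for unsplit ones.

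Over regions with 1 interval in every library, a selection that itself depends on the change, the difference from the other autosomes was -0.04. The ends of those 301 regions moved outwards by less, with a median of 41.9 bp at the left end and of 24.3 bp at the right end, against 60.3 and 62.1 bp on the other autosomes. Here outward is the mean position with KDM5-C70 against that with DMSO. In the 3 libraries of the smaller set the ends moved inwards on chromosome 14, by -5.00 and -13.0 bp, and stayed within 4 bp elsewhere. A split in at least 2 KDM5-C70 lists and in no DMSO list was found at 9 regions (2.31%), with a background of 1.31%. The opposite, in at least 2 DMSO lists and no KDM5-C70 list, was found at 1 (0.26%), with a background of 0.473%.

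Along the chromosome the small pooled change was spread over many bins and was not confined to one of them. Of the 10 bins of 10 Mb, 7 held at least 20 shared regions. Their median log2 width changes ran from 0.02 between 30 and 40 Mb (31 regions) to 0.11 between 20 and 30 Mb (64 regions). On the other autosomes 236 bins held at least 20 regions, with a median of 0.14 and quartiles of 0.11 and 0.17. All 7 bins of chromosome 14 lay below that lower quartile, the highest only just, at 0.107 against 0.108. Of the 236 bins, 7 lay below the lowest chromosome 14 bin and 59 below the highest. Leaving out any single bin left the difference from the other autosomes between -0.10 and -0.08. The bins from 60 to 70 Mb (51 regions) and from 70 to 80 Mb (66 regions) had 0.02 and 0.04, and the last bin, which ends with the heavy chain locus, had 0.08 over 61 regions. The place of the shortfall differed between the sets. Within the set of 5 libraries these 7 medians ran from -0.004 (90 to 100 Mb) to 0.11 (20 to 30 Mb), against 0.14 on the other autosomes. In the set of 3 they ran from -0.12 (50 to 60 Mb) to 0.12 (20 to 30 Mb), against 0.04. There the bin from 20 to 30 Mb and the last bin, with 0.11, lay above the other autosomes.

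The remaining 3 bins were thinly filled. Between 40 and 50 Mb the median was -0.23 over 6 regions, and it was 0.00 over 12 regions between 80 and 90 Mb. With bin edges moved by 5 Mb, the medians lay between -0.02 and 0.10. Inner segments were shorter in every bin, with medians between -0.53 over 5 regions (40 to 50 Mb) and -0.19 over 56 regions in the last bin. In that last bin 49 of 56 regions had shorter inner segments.

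**Figure D4:**
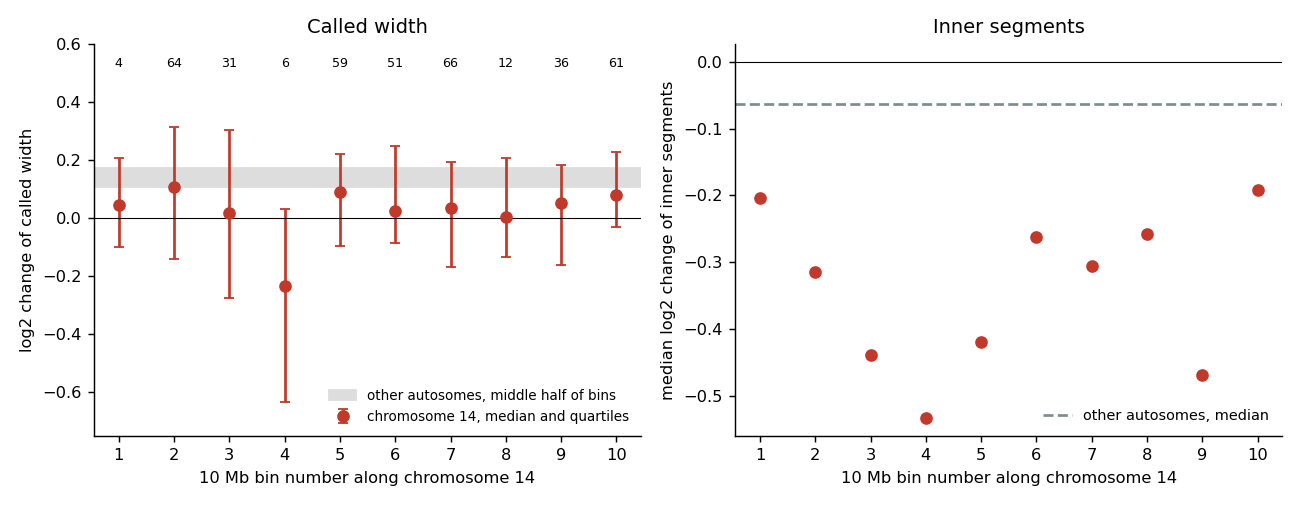
Left, median and quartiles of the log2 change of called width in each 10 Mb bin of chromosome 14, with the number of regions above and the range between the quartiles of bins on the other autosomes in grey. Right, median log2 change of inner segments by bin, with the median of the other autosomes as a dashed line at -0.06. All bins lie below that line.

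Few single regions separated the groups. In limma over all 13729 regions no region passed an adjusted p of 0.05 in either direction (0% wider and 0% narrower), and the smallest adjusted p on chromosome 14 was 0.668. With unadjusted p below 0.05, chromosome 14 held 1 wider and 8 narrower regions, with backgrounds of 0.954 and 0.809%. On chromosome 14 the 3 KDM5-C70 widths lay above all 5 DMSO widths at 1 region (0.26%) and below them at 7 (1.79%). The backgrounds were 0.954 and 0.605%. Leaving out a library can only keep or raise such counts. They were highest with 92 wider regions without KDM5-C70 1, where the background rose to 39.6%, and 19 narrower ones without DMSO 2, where it rose to 2.31%. When each library was centred and the set added as a term, limma called 4 narrower and 0 wider regions of chromosome 14, with backgrounds of 0.16 and 0.0364%. None of the 4 was called without DMSO 1, 3, 4 or 5 or without KDM5-C70 3. The contrast chose the chromosome, so these counts are not read against their backgrounds.

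The region with the smallest p on the chromosome was chr14:100704154-100707164. Its called width was 2538, 2515, 2947, 2676 and 2941 bp in DMSO 1 to 5 and 1141, 1696 and 1471 bp in KDM5-C70 1 to 3. All KDM5-C70 libraries were far below the lowest DMSO library, and the log2 change was -0.94 (SE 0.17). It formed 1 interval in every DMSO list and 2, 3 and 3 intervals in KDM5-C70 1 to 3. A second region of this kind was chr14:52117392-52120067, with 1920, 1850, 2659, 2500 and 2346 bp with DMSO and 1286, 1755 and 1769 bp with KDM5-C70. It was also 1 interval in every DMSO list and 2 in every KDM5-C70 list, and its log2 change was -0.49 (SE 0.19). These were the only 2 shared regions of chromosome 14 split in all KDM5-C70 and no DMSO lists (0.51%, background 0.182%).

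At 2 further narrower regions the splits were found in KDM5-C70 2 and 3. At chr14:64969779-64972551 the widths were 1998, 2276, 2773, 1864 and 2603 bp with DMSO and 1846, 965 and 371 bp with KDM5-C70. KDM5-C70 1 lay only just below the lowest DMSO library, and DMSO 4 was split there too. At chr14:103057892-103060340 they were 2177, 2094, 2346, 2248 and 2448 bp, and 2073, 1426 and 1334 bp. Here as well KDM5-C70 1 nearly met the DMSO libraries, so the narrowing rested on KDM5-C70 2 and 3.

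The other 3 narrower regions stayed in 1 interval in every list. At chr14:58710624-58712865 the widths were 1021, 986, 2142, 2064 and 895 bp with DMSO and 386, 586 and 476 bp with KDM5-C70, a log2 change of -1.47 (SE 0.36), the lowest of the 390. KDM5-C70 1 and 3 held no inner segment there. At chr14:62161670-62163763 they were 1442, 1373, 1264, 2094 and 1632 bp, and 833, 1140 and 871 bp. At chr14:67827087-67827879, a small region, they were 541, 507, 762, 660 and 560 bp, and 192, 361 and 311 bp. That region lost its inner segment in KDM5-C70 3, and the lowest value is close to 146 bp, the shortest width in the lists.

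The single region wider in every KDM5-C70 library was chr14:59104275-59106157. It had 1171, 922, 1211, 1190 and 1273 bp with DMSO and 1526, 1281 and 1454 bp with KDM5-C70, a log2 change of 0.31 (SE 0.19). The lowest KDM5-C70 width exceeded the highest DMSO width by only 8 bp.

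**Figure D5:**
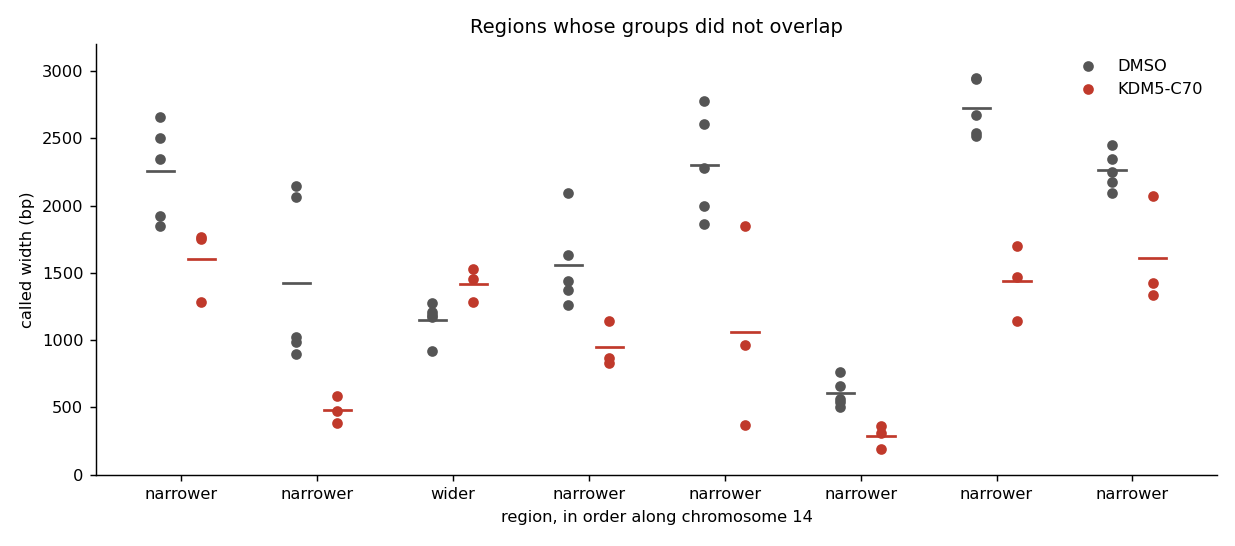
Called width in bp of each library at the 8 regions of chromosome 14 whose groups did not overlap, in order along the chromosome, DMSO in grey and KDM5-C70 in red, with bars at the group means. The 7 regions marked narrower have all KDM5-C70 points below all DMSO points.

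The widest regions of the chromosome overlapped between the groups. The widest by mean, chr14:55031748-55035243, had 2844, 2141, 2949, 2575 and 2213 bp with DMSO and 2124, 3083 and 2962 bp with KDM5-C70. At chr14:77491890-77495002 the widths were 2492, 2003, 3089, 2946 and 3076 bp, and 2118, 2933 and 2151 bp. At chr14:54420351-54423647 they were 3196, 902, 3269, 2871 and 3207 bp, and 2177, 2748 and 2265 bp. At these last 2 regions KDM5-C70 2 and 3 were narrower than all DMSO libraries of their set. The other 2 of the 5 widest lay close together near the far end of the chromosome. The first, chr14:105953670-105958067, was in several intervals in every list, with 2113 ± 498 bp (SD, n = 5) with DMSO and 2714 ± 894 bp (SD, n = 3) with KDM5-C70. The second, chr14:105992504-105995273, had 2355 ± 478 bp (SD, n = 5) and 2269 ± 296 bp (SD, n = 3). Here too KDM5-C70 2 and 3, with 2072 and 2609 bp, were narrower than DMSO 3, 4 and 5, with 2647, 2681 and 2753 bp. At chr14:105953670-105958067 they had 3541 and 2834 bp, above the 2329, 2069 and 2775 bp of DMSO 3, 4 and 5. At chr14:55031748-55035243 they also lay above those DMSO libraries.

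The 2 regions nearest the median change of the chromosome showed no separation, but they were narrow beside its median width of 1201 bp. The region chr14:100196449-100197022 had 475, 169, 519, 525 and 546 bp with DMSO and 481, 371 and 445 bp with KDM5-C70. The region chr14:103557493-103558331 had 530, 235, 701, 673 and 683 bp, and 381, 584 and 741 bp. In both, DMSO 2 was the lowest library, and KDM5-C70 2 lay below DMSO 3, 4 and 5. At the first region the 169 bp of DMSO 2 is close to 146 bp, the shortest width in the lists. Its log2 change was -0.38 within the set of 5 libraries and 0.76 within the set of 3. At the second region these were -0.06 and 0.11.

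Across the 22 autosomes, chromosomes whose regions had weaker p-values in the DMSO lists also had smaller width changes. Spearman's rho between the median -log10 p-value and the median log2 width change was 0.77 (n = 22 chromosomes), and 0.74 without chromosome 14. With the median log2 change of inner segments it was 0.83. These are descriptions over chromosomes that share the same libraries. Chromosome 13, at 5.66 in -log10 p-value beside 5.66 on chromosome 14, had the second lowest value for called width and for inner segments, and chromosome X, at 5.44, had -0.36 for inner segments. By contrast, rho with the number of shared regions per protein-coding gene was 0.03. The part of region p-value or of sequencing depth in the changes on chromosome 14 was not tested.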

How the data were processed

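H3K4me3 ChIP-seq regions of 8 libraries were analysed. Per the submitters' processing notes, the tools were MACS2 2.1.0, Bowtie 1.1.2, HOMER 4.8 and Trim Galore 0.40, on GRCh37. Their settings are not given here. For each library the authors deposited 1 list with positions and inner blocks in bp, a fold enrichment (ratio), and the -log10 p-value and -log10 q-value of each region. Between 23 and 41 regions per list outside chromosomes 1 to 22 and X were left out. Widths were computed as called bases per merged region and compared on the log2 scale with limma 3.58.1 in R 4.3.3 (variance trend, 2-sided, Benjamini-Hochberg adjustment over 13729 regions). Tables were made with pandas 2.3.3 and numpy 2.4.6 in Python 3.11.15, figures with matplotlib 3.10.9 and rank correlations with scipy 1.17.1. On simulated widths for the 13729 regions limma found 60 of 100 regions given a log2 change of 1, 90 of 100 given one of 2, and made 10 false calls. The simulated noise was independent between libraries, with SDs taken after each library was centred. It held no shift shared by a library, unlike the data with their 2 sets. These counts therefore do not give the sensitivity of the main fit.

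The regions, tests and alternatives were chosen with earlier results of these data known. Named regions are those whose groups do not overlap (up to 10 in each direction by limma p), the 5 widest, the first and the last, and the 2 nearest the median change. The measures of splitting and of inner width change were chosen after seeing the data. Depth is unknown, and no sequence was read because no GRCh37 genome was used here.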

Additional observations from a re-analysis of the deposited data

Results flagged for a closer look

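Among the DMSO libraries, 25 groups of values were searched for a single library far from the others, which by chance marks about 5% of groups, and 5 were marked. DMSO 1 had a median fold enrichment of 3.10 on chromosome 14, while the others had 2.79 to 2.85. DMSO 2, with the shortest list, accounts for the other 4. It had 2.74% of its list on chromosome 14 (2.42 to 2.46% in the others) and no inner segment in 3.33% of the 390 regions (0 to 0.26% in the others). Its called width was 902 bp at chr14:54420351-54423647 (2871 to 3269 bp in the others) and 169 bp at chr14:100196449-100197022 (475 to 546 bp).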

How the results depend on the processing

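The difference of chromosome 14 from the other autosomes in median log2 width change, -0.08, was negative in all 28 alternatives, from -0.22 with inner segments only to -0.04. Leaving out 1 library gave -0.12 (without DMSO 2) to -0.04 (without KDM5-C70 1), and joining regions within 1000 bp gave -0.04. Chromosome 14 was the lowest autosome in 24 of 26 alternatives and second lowest in those last 2 cases. Its own median change of 0.06 turned to -0.30 with inner segments only and ran from -0.089 to 0.33 when 1 library was left out, negative without DMSO 2, KDM5-C70 2 (-0.061) or KDM5-C70 3 (-0.046). With the set as a term it was 0.00. With bin edges moved by 5 Mb, the lowest bin median went from 0.018 to -0.021.

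Shares in parentheses are over all regions under the same setting. The count of 1 wider region without overlap became 0 with inner segments (0.0817%), 24 with separation required only within each set (15.3%) and 49 with the replicate block, each KDM5-C70 library above the DMSO library of its number (23.8%). It was 1 to 92 without 1 library, the highest without KDM5-C70 1 (39.6%). The count of 7 narrower regions became 2 with lists of equal length (0.374%), 2 with joining (0.490%), 20 with inner segments (3.46%), 21 within sets (3.0%) and 12 with the replicate block (2.24%). It was 7 to 19 without 1 library, the highest without DMSO 2 (2.31%). With joining, the 2 were 0.515% of the chromosome 14 regions, near the share over all regions. The labels do not say whether the numbers pair the libraries. Deviations of DMSO 2 and KDM5-C70 2, which lie in different sets, correlated at -0.31. Those of numbers 1 and 3, whose libraries share a set, correlated at 0.37 and 0.32. These correlations cannot tell pairing from the sets. The replicate block gave -0.07 for the difference from the other autosomes.

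The 0 limma calls over all regions (242 at an unadjusted p under 0.05) became 1 with stricter lists, where 10 regions and none of chromosome 14 were shared by all lists, 10 with the replicate block and 27 with centring and the set as a term. Of those 27, 22 were narrower (0.16%) and 5 wider (0.0364%), and 4 narrower ones lay on chromosome 14: chr14:50086490-50089051, which is outside the rule for named regions, chr14:52117392-52120067, chr14:67827087-67827879 and chr14:100704154-100707164. Leaving 1 library out of that fit gave 0 calls (each of DMSO 1, 4 and 5 and KDM5-C70 3), 1 (DMSO 3), 16 (DMSO 2), 32 (KDM5-C70 2) or 108 (KDM5-C70 1). The inner share difference stayed between -20.8 and -16.2 points, and the split share difference of 7.04 points between 6.10 and 7.90, when 1 library was left out. The median inner change ran from -0.54 (without KDM5-C70 2) to -0.07 (without KDM5-C70 1). The causes were not tested. With depth unknown, a missing region or segment can only be read as one the caller did not report.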
